A study of Caenorhabditis elegans with 18 samples.

Results

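The genes described here are the antibacterial gene families of Caenorhabditis elegans whose WormBase names begin with lys-, ilys-, spp- or abf-. The rule used names alone and no measured value. It found 52 members among the 46748 genes of the counts table, namely 10 lys, 6 ilys, 30 spp and 6 abf genes. The annotation of WBcel235 lists all 52 as protein-coding. A further gene of such a name, spp-27, was not analysed here.

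C. elegans eats bacteria and meets pathogens through the same route, and its pharynx and intestine make secreted proteins that kill or digest them. The lys genes encode lysozymes related to those of amoebae and the ilys genes encode invertebrate-type lysozymes, and both kinds of enzyme cut the peptidoglycan of bacterial walls. The spp genes encode saposin-like proteins, small folds held by disulfide bonds, and several of them, the caenopores, open pores in bacterial membranes. The abf genes encode antibacterial factors, cysteine-rich secreted peptides that resemble defensins. Many of these genes are made in the intestine, and some, such as lys-7, are known to respond to infection and to insulin signalling through the FOXO factor DAF-16.

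The study held 18 RNA libraries of whole N2 hermaphrodites, the wild-type strain, in 6 groups of 3 that differ in RNAi plasmid and age. The groups were M05B5.5 at 5 days and at 1 day, T14F9.5 at 5 days and at 1 day, and L4440 at 5 days and at 1 day. L4440 is the empty vector of RNAi by feeding, M05B5.5 is the gene hlh-2, the worm's E-type basic helix-loop-helix factor, and T14F9.5 is the gene lin-32, an atonal-type factor. All animals shared the N2 background, and RNA of all tissues was pooled in each library. The labels do not say from which event the days count, nor whether libraries of 1 group are separate cultures. The spread that p-values measure is therefore that of these samples alone and may be technical. In whole animals, a change in the amount of RNA per cell and a change in the number or size of the cells that make it cannot be told apart.

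Some libraries stood apart from their groups. The libraries held 27024193 to 43016293 counts. On the first principal component over all genes, which took 47.3% of the variance, replicate 1 of day 5 of each plasmid lay at -22.5 to -19.4, among the day-1 libraries (-83.0 to -19.4), and replicates 2 and 3, called the later day-5 libraries here, lay at 52.9 to 70.2. Replicates are numbered in the order of the deposit, and no time order is known. The age label of the 3 day-5 libraries of replicate 1 is therefore in doubt, and with it each day-5 value and age difference that includes them. L4440 day-1 replicate 2 lay at the low end. By their descriptions, 1 index and lane is shared by replicate 1 of L4440 and replicate 2 of T14F9.5 at day 1. At day 1 no lane held both M05B5.5 and L4440 libraries, and there the lane cannot be told apart from the plasmid. Within each plasmid, too, no lane held libraries of both ages. Lane and age cannot be told apart in L4440 and T14F9.5, and in M05B5.5 only by way of libraries of other plasmids. hlh-2 stood at 11.4 to 12.7 counts-per-million (CPM) in M05B5.5 and 23.7 to 53.9 CPM in L4440 at day 1, and at 12.5 to 31.1 CPM in M05B5.5 and 53.8 to 59.3 CPM in L4440 at day 5. lin-32 showed no lower level in T14F9.5, with 1.956 to 2.45 CPM against 1.74 to 2.57 CPM in L4440 at day 1 and 1.06 to 5.29 CPM against 0.234 to 0.952 CPM at day 5, so every direction given for that plasmid refers to the libraries labelled T14F9.5. The 12 intestine markers were present in every library, at a summed 20981 to 50097 CPM, and of 7 pharynx markers only phat-1 was at 0 in any library.

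The 52 genes together took 0.256% to 0.684% of the counts of a library. Levels of different genes are compared per kilobase of exon, as the median over the 9 day-1 libraries. spp-5, an intestinal caenopore, stood at 1143 CPM per kb, spp-14 at 683 CPM per kb, ilys-5 at 599 CPM per kb, spp-17 at 524 CPM per kb and spp-3 at 391 CPM per kb. The lysozymes lys-1, lys-4 and lys-7 followed with 256, 228 and 196 CPM per kb. Over the 6 later day-5 libraries the median of lys-7 was 2212 CPM per kb, above spp-5 at 1481, spp-14 at 939.6 and ilys-5 at 472 CPM per kb. Among the abf genes the median per kb at day 1 was highest for abf-5, with 7.25 CPM per kb, and among the later day-5 libraries for abf-2, with 43.1 CPM per kb.

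Of the 52 members 39 had enough counts to be tested, namely 9 lys, 4 ilys, 22 spp and 4 abf genes. Below the filter were lys-9, ilys-1, ilys-6, abf-3, abf-4, spp-6, spp-7, spp-11, spp-19, spp-21, spp-26, spp-29 and spp-30. spp-30 had 0 counts in every library, and no other untested member had more than 18 counts in any library, the most being in ilys-6. Of the tested members, abf-1, ilys-2, ilys-3, spp-9 and spp-20 had 10 or more counts in later day-5 libraries alone. So did spp-12 but for L4440 day-1 replicate 2, with 15 counts. The filter admitted all of these genes through the libraries in which they are high, so their tests are no independent support for a rise with age. The members are short: the median exon length of the tested ones was 522 bases, against 1363 bases over all 14735 genes tested. They also lie close together. Of the 52 genes, lys-1, lys-2 and lys-3 (chromosome V, 10277904 to 10283544, WBcel235), lys-4, lys-5 and lys-6 (IV, 11621429 to 11627947), ilys-1, ilys-2 and ilys-3 (IV, 2464456 to 2471449), and spp-2 to spp-6 (X, 7314969 to 7320354) each form a run with gaps of at most 10000 bases. How the counting treated reads that match several places is not given in the sources used here, so levels within such runs of related genes are uncertain to that extent. Exons of spp-15 and spp-16 overlap a gene on the other strand by 42.9% and 28.5% of their length, and whether the counting used strand is not given.

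**Figure D1:**
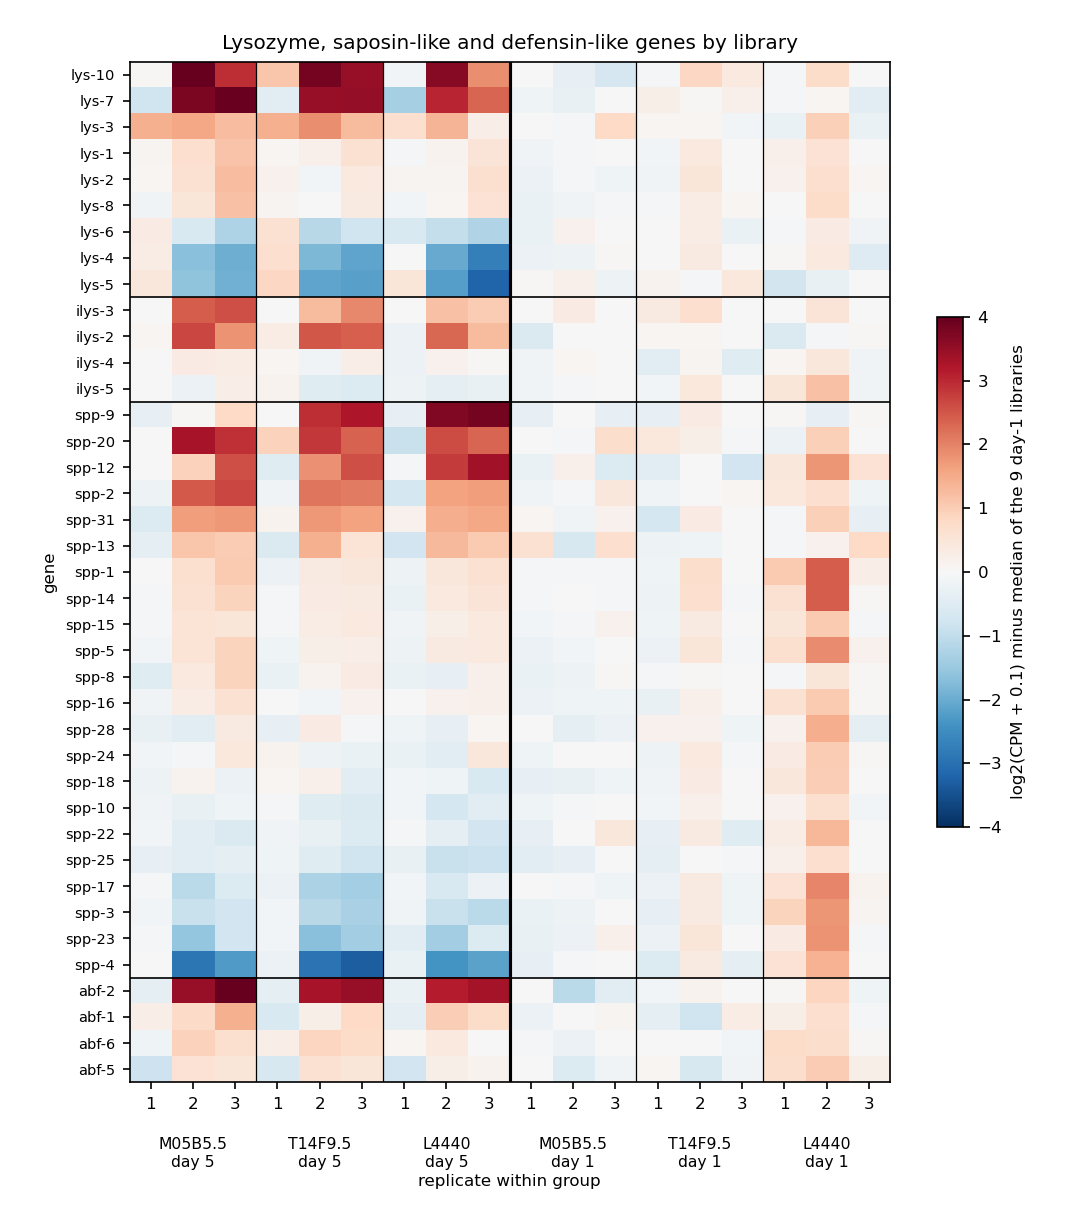
Level of the 39 tested members in each of the 18 libraries, as log2(CPM + 0.1) minus the median of the 9 day-1 libraries, by family and by gene (rows) and by group and replicate (columns). Replicate 1 of day 5 lacks the high lys-7, abf-2 and spp-2 levels and the low lys-4 and spp-4 levels of the later day-5 replicates, and L4440 day-1 replicate 2 is high for most spp genes.

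Age was compared within each plasmid. lys-7, the lysozyme gene best known as an immune effector (WBGene00003096, chromosome V, 3481432 to 3482600 on the minus strand), gave the highest CPM of any member in later day-5 worms. It stood at 101, 2388 and 2714 CPM in M05B5.5 at day 5 and at 158, 143 and 177 CPM at day 1. In T14F9.5 it stood at 129, 1978 and 2011 CPM at day 5 and 207, 185 and 205 CPM at day 1. In L4440 it stood at 70.8, 1467 and 897 CPM at day 5 and 170.1, 186 and 132 CPM at day 1. The 6 later day-5 libraries (897 to 2714 CPM) lay above all 9 day-1 libraries (132 to 207 CPM), and the replicate-1 libraries of day 5 (70.8 to 129 CPM) lay below all of them.

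With all libraries in the fit, that split within day 5 enters the error, and lys-7 passed in no plasmid. Its log2 fold change of day 5 over day 1 was 3.45 ± 1.11 in M05B5.5, 2.79 ± 1.07 in T14F9.5 and 2.32 ± 1.06 in L4440 (SE, edgeR quasi-likelihood, adjusted p = 0.303, 0.491 and 0.118). Without replicate 1 of day 5 it was 4.003 ± 0.22 in M05B5.5, 3.32 ± 0.21 in T14F9.5 and 2.86 ± 0.21 in L4440, and it rose in all 3 (adjusted p = 9.15e-07, 3.23e-06 and 5.54e-06). Those 3 libraries were set aside knowing that they lie with the day-1 libraries on the first principal component and that lys-7 is low in them. The fit without them therefore gives larger differences between the ages by construction, and its p-values take no account of that choice.

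Over the tested members the 2 fits differed. With all libraries, 1 of 39 tested members was higher and 7 were lower at day 5 in L4440, where 15.8% of all genes passed (6.72% higher and 9.11% lower). In M05B5.5 and in T14F9.5 0 members passed, as did 0 of all 14735 genes (0%), with 15 members in M05B5.5 and 12 in T14F9.5 under an unadjusted p of 0.05 (12.9% and 10.2% of all genes). DESeq2 called 2 members in M05B5.5 (0.937% of all genes) and 0 in T14F9.5 (0.0747%). Without replicate 1 of day 5, 16 of 40 tested members were higher and 4 lower in M05B5.5 (20.4% of all genes called, 9.78% higher and 10.6% lower). In T14F9.5 12 were higher and 7 lower (17.9% of all genes, 7.56% higher and 10.3% lower), and in L4440 9 were higher and 12 lower (30.1% of all genes, 12.1% higher and 18% lower). The median log2 fold change of the members in that fit was 0.81 in M05B5.5, 0.20 in T14F9.5 and -0.38 in L4440, beside -0.03, 0.00 and -0.04 over all genes.

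In that fit 8 members rose in every plasmid, lys-7, lys-10, ilys-2, abf-2, spp-2, spp-12, spp-20 and spp-31, and 4 fell in every plasmid, lys-4, lys-5, lys-6 and spp-4. Of all 14952 genes tested there, 4.78% rose and 6.53% fell in all 3. By the values themselves, the 6 later day-5 libraries lay above all 9 day-1 libraries for 8 of 39 tested members, lys-7, lys-10, ilys-2, ilys-3, abf-2, spp-2, spp-20 and spp-31, where 11.2% of all genes did so. They lay below them for 7 members, lys-4, lys-5, lys-6, spp-3, spp-4, spp-17 and spp-23, where 12.6% of all genes did so. The filter admitted ilys-2, ilys-3, spp-12 and spp-20 through later day-5 libraries, where they are high. Their places among the members that rose or lay above are therefore no independent support for a rise.

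**Figure D2:**
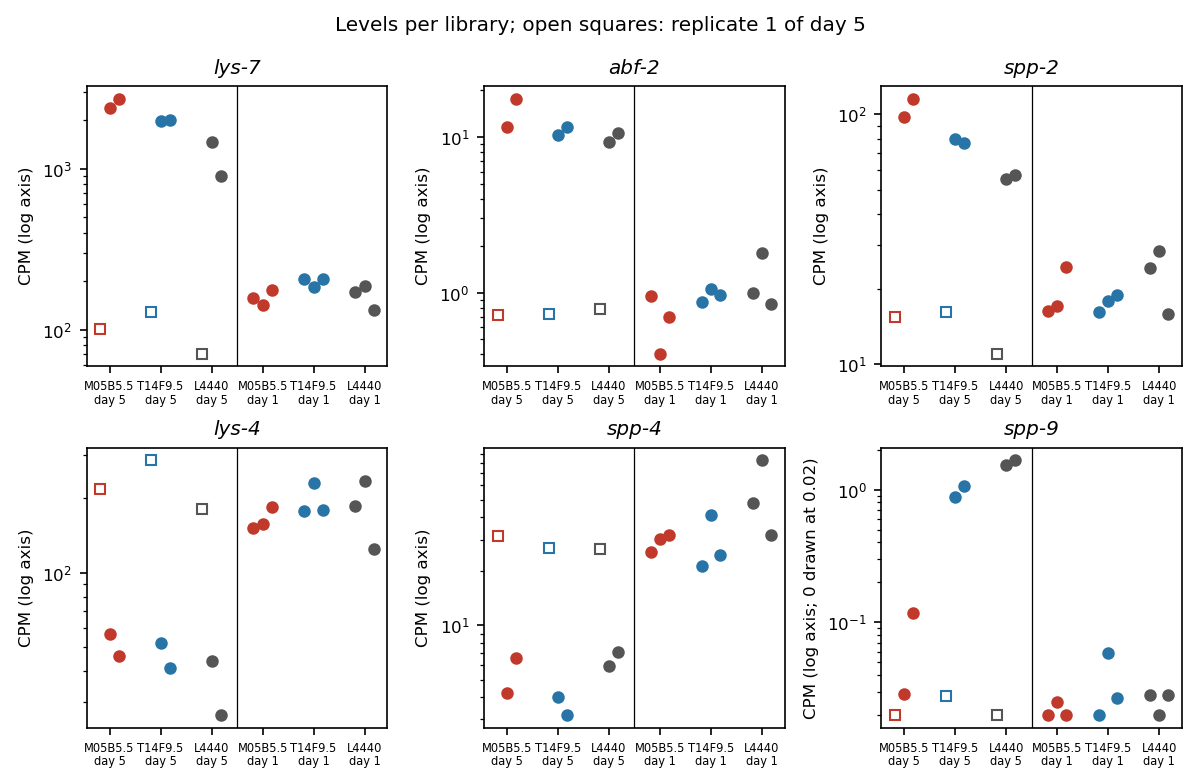
CPM (log axis) in each library of 6 members, with the day-5 groups left of the day-1 groups and open squares for replicate 1 of day 5. For lys-7, abf-2 and spp-2 the later day-5 points lie above every day-1 point, for lys-4 and spp-4 below, and for spp-9 high points are seen at day 5 in T14F9.5 and L4440 but not in M05B5.5.

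lys-4, lys-5 and lys-6, 3 neighbours on chromosome IV, lay lower in the later day-5 libraries than in every day-1 library. lys-4 stood at 218, 56.5 and 46.2 CPM at day 5 and 152, 157 and 184 CPM at day 1 in M05B5.5. In T14F9.5 it stood at 285, 51.9 and 41.2 CPM at day 5 and 178, 230.1 and 179 CPM at day 1, and in L4440 at 181, 43.9 and 26.6 CPM at day 5 and 187, 234.8 and 125 CPM at day 1. Replicate 1 of day 5 lay within or above the day-1 range and the other 2 below it. Without replicate 1, lys-4 fell in all 3 plasmids, with log2 fold changes of -1.68 ± 0.28, -2.08 ± 0.28 and -2.37 ± 0.29 (SE) in M05B5.5, T14F9.5 and L4440 (adjusted p = 1.00e-03, 2.89e-04 and 1.40e-04). With all libraries its log2 fold change was -0.62 ± 0.76, -0.64 ± 0.76 and -1.12 ± 0.77 (SE), and it passed in none.

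lys-5 and lys-6 had far lower levels than lys-4. lys-5 had 7 and 6 counts in the later M05B5.5 day-5 libraries and 28 to 38 counts at day 1, 4 and 4 counts in T14F9.5 at later day 5 against 26 to 42 at day 1, and 4 and 0 counts in L4440 at later day 5 against 15 to 29 at day 1. Over summed counts the ratio of later day 5 to day 1 was 0.202 in M05B5.5 (95% exact interval 0.104 to 0.361), 0.114 in T14F9.5 (0.0481 to 0.234) and 0.0791 in L4440 (0.0209 to 0.213), where the intervals cover counting error only. In replicate 1 of day 5 lys-5 stood at 1.15 to 1.53 CPM, above all 9 day-1 libraries (0.456 to 1.13 CPM). It was the only member above the day-1 range in all 3 of those libraries, where 2.75% of all genes were, and lys-7 and abf-5 were the 2 members below it, where 3.39% of all genes were. lys-6 stood at 2.37, 1.18 and 0.730 CPM at day 5 and 1.53, 2.10 and 1.89 CPM at day 1 in M05B5.5, with log2 fold changes of -0.96 ± 0.28, -1.05 ± 0.28 and -1.20 ± 0.28 without replicate 1 in M05B5.5, T14F9.5 and L4440 (adjusted p = 0.0272, 0.0205 and 0.00859). In M05B5.5 the call of lys-6 was lost without day-1 replicate 2 or 3 or day-5 replicate 3 (log2 fold change -0.85, -0.94 and -0.64), and that of lys-5 without day-5 replicate 3 (-2.03).

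lys-1, lys-2 and lys-8, abundant lysozymes of the intestine, rose with age in M05B5.5 in the fit without replicate 1 and passed in neither other plasmid. lys-1 stood at 266, 393 and 538 CPM at day 5 and 222, 239 and 245 CPM at day 1 in M05B5.5. In T14F9.5 it stood at 259, 284 and 371 CPM at day 5 and 227, 319 and 249 CPM at day 1, and in L4440 at 239, 268 and 348 CPM at day 5 and 282, 368 and 245 CPM at day 1. The log2 fold changes were 0.98 ± 0.21 in M05B5.5, 0.30 ± 0.22 in T14F9.5 and 0.05 ± 0.22 in L4440 (SE, adjusted p = 0.00612, 0.404 and 0.877). lys-2 was at 1.11 ± 0.26, 0.02 ± 0.26 and 0.08 ± 0.26, and lys-8 at 1.01 ± 0.25, 0.10 ± 0.26 and 0.08 ± 0.26 in the same order of plasmids. The difference between the age effects in M05B5.5 and L4440 was tested itself and did not pass, at 0.94 ± 0.31 for lys-1, 1.02 ± 0.37 for lys-2 and 0.94 ± 0.37 for lys-8 (adjusted p = 0.510 for each). An effect of age particular to M05B5.5 was therefore not shown.

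lys-10 and lys-3 are low lysozyme genes. lys-10 stood at 0.231, 6.03 and 2.38 CPM at day 5 and 0.219, 0.152 and 0.0996 CPM at day 1 in M05B5.5, at 0.584, 4.44 and 3.47 CPM at day 5 and 0.204, 0.472 and 0.321 CPM at day 1 in T14F9.5, and at 0.196, 3.89 and 1.07 CPM at day 5 and 0.200, 0.429 and 0.226 CPM at day 1 in L4440. Its later day-5 values lay above every day-1 value in each plasmid, and without replicate 1 it rose with log2 fold changes of 4.72 ± 0.61, 3.56 ± 0.56 and 3.18 ± 0.60 (SE, adjusted p = 1.80e-04, 8.30e-04 and 0.00237). In L4440 it was at 1.97 without day-5 replicate 2 (adjusted p = 0.0476) and 3.82 without day-5 replicate 3, and in M05B5.5 at 3.91 without day-5 replicate 2. lys-3 passed in T14F9.5 alone, at 1.83 ± 0.49 (adjusted p = 0.0206), beside 1.26 ± 0.47 in M05B5.5 and 0.87 ± 0.51 in L4440 (adjusted p = 0.0823 and 0.199). In replicate 1 of day 5 lys-3 stood at 1.04, 1.06 and 0.588 CPM in M05B5.5, T14F9.5 and L4440, against 0.254 to 0.729 CPM in the day-1 libraries.

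The invertebrate-type lysozymes held 1 abundant gene, ilys-5 (chromosome X, 6533490 to 6536840), and 5 low ones, of which 3 were tested. ilys-5 stood at 768, 658 and 915 CPM at day 5 and 696, 739 and 785 CPM at day 1 in M05B5.5. In T14F9.5 it stood at 853, 549.5 and 531 CPM at day 5 and 718, 1026 and 769 CPM at day 1, and in L4440 at 673, 588 and 624 CPM at day 5 and 1070.2, 1728 and 692 CPM at day 1. With all libraries it fell with age in L4440, by 0.89 on the log2 scale (SE 0.27, adjusted p = 0.0420), and was at 0.08 ± 0.27 in M05B5.5 and -0.38 ± 0.27 in T14F9.5 (adjusted p = 0.926 and 0.591). In L4440 the 3 day-1 values differ most, and without L4440 day-1 replicate 2 the log2 fold change was -0.48 (adjusted p = 0.195).

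ilys-2 and ilys-3 are neighbours on chromosome IV, and ilys-3 encodes a lysozyme of the pharynx and intestine. ilys-2 had 30 and 18 counts in the later M05B5.5 day-5 libraries and 0, 2 and 2 counts at day 1. It had 26 and 27 counts in T14F9.5 at later day 5 against 2, 2 and 2 at day 1, and 26 and 10 counts in L4440 at later day 5 against 0, 1 and 2 at day 1. The ratio of CPM over summed counts was 18.1 in M05B5.5 (95% interval 6.61 to 68.9), 12.5 in T14F9.5 (5.38 to 35.6) and 14.2 in L4440 (4.499 to 72.3). Without replicate 1 it rose in all 3 plasmids (adjusted p = 1.00e-03, 0.00174 and 0.00377), and in L4440 the call was lost without day-5 replicate 2 (2.90, adjusted p = 0.052). ilys-3 had 15 and 21 counts in the later M05B5.5 day-5 libraries against 0, 1 and 0 at day 1, 5 and 11 in T14F9.5 against 1, 2 and 0 at day 1, and 5 and 4 in L4440 against 0, 1 and 0 at day 1. It rose in M05B5.5 and T14F9.5 (adjusted p = 6.86e-04 and 0.0310) and did not pass in L4440 (adjusted p = 0.0501). The filter admitted ilys-2 and ilys-3 only through later day-5 libraries, where they are high, so these tests are no independent support for a rise. ilys-4 stood between 1.58 and 3.09 CPM in all 18 libraries and passed in no plasmid, at 0.35 ± 0.23, 0.34 ± 0.23 and -0.03 ± 0.23 in M05B5.5, T14F9.5 and L4440.

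**Figure D3:**
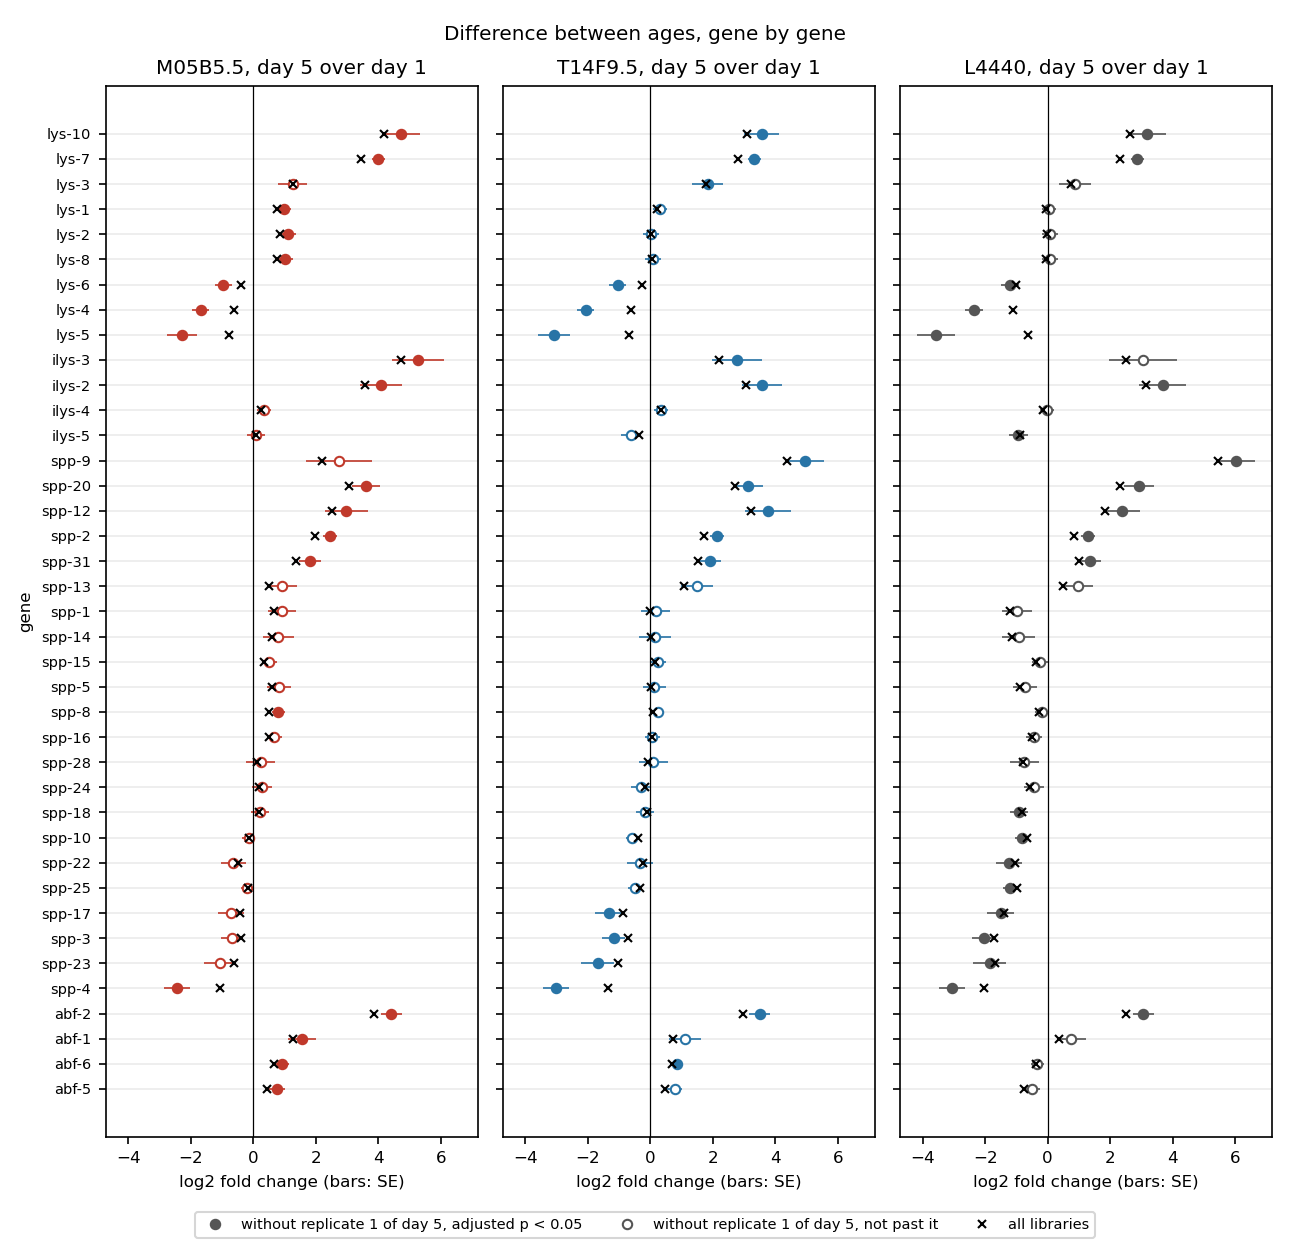
Log2 fold change of day 5 over day 1 for the 39 tested members in M05B5.5, T14F9.5 and L4440. Circles with SE bars come from the fit without replicate 1 of day 5, filled where the adjusted p is under 0.05, and crosses from the fit with all libraries. The circles of lys-7, abf-2 and spp-2 lie right of 0 and those of lys-4 and spp-4 left of 0 in each plasmid, and the abundant genes lys-1, lys-2, lys-8, spp-1, spp-5 and spp-14 lie higher in M05B5.5 than in L4440.

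The saposin-like genes moved in both directions. With all libraries, 6 of 22 tested spp genes fell with age in L4440, spp-3, spp-10, spp-17, spp-18, spp-23 and spp-25, and spp-9 rose. Of all genes 9.11% fell and 6.72% rose there. Without replicate 1 of day 5, 5 spp genes rose and 1 fell in M05B5.5, 5 rose and 4 fell in T14F9.5, and 5 rose and 8 fell in L4440, of 23 tested. The shares of all genes that rose and fell were 9.78% and 10.6%, 7.56% and 10.3%, and 12.1% and 18% in that order. The filter admitted spp-9, spp-12 and spp-20 through later day-5 libraries, so their rises are no independent support. spp-4 was the only spp gene that fell in every plasmid. It stood at 31.6, 4.19 and 6.57 CPM at day 5 and 25.5, 30.2 and 31.9 CPM at day 1 in M05B5.5. In T14F9.5 it stood at 26.9, 4.01 and 3.17 CPM at day 5 and 21.5, 40.9 and 24.8 CPM at day 1, and in L4440 at 26.6, 5.91 and 7.07 CPM at day 5 and 47.7, 82.8 and 31.7 CPM at day 1. Replicate 1 of day 5 lay within the day-1 range and the other 2 lay below it. Without replicate 1, spp-4 fell in all 3 plasmids, with log2 fold changes of -2.43 ± 0.40, -3.02 ± 0.42 and -3.05 ± 0.42 (SE) (adjusted p = 0.00104, 3.31e-04 and 2.84e-04).

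spp-4 lies in a run of 5 spp genes on chromosome X, and calls in that run went in both directions. spp-2 stood at 15.5, 98.0 and 116 CPM at day 5 and 16.4, 17.1 and 24.5 CPM at day 1 in M05B5.5, at 16.2, 79.99 and 76.8 CPM at day 5 and 16.1, 18.0 and 19.02 CPM at day 1 in T14F9.5, and at 11.03, 55.3 and 57.0 CPM at day 5 and 24.4, 28.5 and 15.9 CPM at day 1 in L4440. Its later day-5 values lay above all day-1 values, and without replicate 1 it rose with log2 fold changes of 2.47 ± 0.23, 2.14 ± 0.22 and 1.30 ± 0.22 (SE, adjusted p = 1.56e-05, 4.47e-05 and 0.00130). spp-3, at the left end of the run, stood at 124, 72.6 and 79.1 CPM at day 5 and 111, 116 and 134 CPM at day 1 in M05B5.5, and at 121, 72.2 and 63.7 CPM at day 5 and 247, 454 and 146 CPM at day 1 in L4440. It fell in T14F9.5 and in L4440 (-1.17 ± 0.36 and -2.05 ± 0.37, adjusted p = 0.0400 and 0.00196) and was at -0.67 ± 0.35 in M05B5.5 (adjusted p = 0.221). spp-5, at the right end and the spp gene of highest level, stood at 395, 612 and 779.6 CPM at day 5 and 359.9, 389.7 and 423 CPM at day 1 in M05B5.5. Without replicate 1 it passed in no plasmid, at 0.83 ± 0.38, 0.13 ± 0.38 and -0.72 ± 0.39 in M05B5.5, T14F9.5 and L4440. spp-6, between spp-2 and spp-4, had 1 to 10 counts a library. These genes are related and close together, so the treatment of reads that fit several of them bears on each value, and its part was not tested.

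spp-17 and spp-23, neighbours on chromosome I, were lower in the later day-5 libraries than in every day-1 library. spp-17 stood at 183, 90.7 and 131 CPM at day 5 and 191, 184 and 170.1 CPM at day 1 in M05B5.5, at 162, 79.2 and 74.1 CPM at day 5 and 163, 247 and 170.2 CPM at day 1 in T14F9.5, and at 176, 126 and 162 CPM at day 5 and 286, 735 and 209 CPM at day 1 in L4440. Without replicate 1 spp-17 was at -0.72 ± 0.41, -1.34 ± 0.42 and -1.503 ± 0.43 and spp-23 at -1.05 ± 0.51, -1.69 ± 0.53 and -1.85 ± 0.52 in M05B5.5, T14F9.5 and L4440. Both fell in T14F9.5 (adjusted p = 0.0464 and 0.0443) and in L4440 (adjusted p = 0.0210 and 0.0203). In T14F9.5 those calls were lost without most single libraries, and in L4440 that of spp-23 was lost without day-5 replicate 2 (-1.48) or 3 (-2.34).

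spp-10, the worm's counterpart of prosaposin, stood at 235.01, 209.8 and 232 CPM at day 5 and 231, 243 and 259 CPM at day 1 in M05B5.5, and at 238, 159.6 and 189 CPM at day 5 and 291, 405 and 238 CPM at day 1 in L4440. It fell in L4440 by 0.67 with all libraries and by 0.83 without replicate 1 on the log2 scale (adjusted p = 0.0387 and 0.00884). In M05B5.5 it was at -0.15 ± 0.19 and in T14F9.5 at -0.58 ± 0.20 in the second fit (adjusted p = 0.671 and 0.0614). spp-18, spp-22 and spp-25 fell in L4440 in that fit, at -0.91 ± 0.29, -1.24 ± 0.41 and -1.21 ± 0.23, and passed in neither other plasmid. The number of all-library calls in L4440 changed with single libraries. Without L4440 day-1 replicate 2, the 6 spp genes that fell were at -1.19 (spp-3), -0.88 (spp-23), -0.67 (spp-17), -0.77 (spp-25), -0.53 (spp-18) and -0.43 (spp-10), and 0 members passed. Likewise 0 passed without L4440 day-1 replicate 1 or without L4440 day-5 replicate 2 or 3. Also 0 passed without any one M05B5.5 day-1 library, where the fold changes stayed as they were (spp-3 at -1.71 and spp-10 at -0.66). Without L4440 day-1 replicate 3, 15 of 41 tested members passed, where 37% of all genes did (19.7% higher and 17.2% lower).

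Beside spp-2, the low genes spp-12, spp-20 and spp-31 rose with age in every plasmid in the fit without replicate 1. The filter admitted spp-12 and spp-20 through later day-5 libraries, where they are high, so their tests are no independent support for a rise. spp-12, a caenopore gene known from neurons of the pharynx, stood at 0.115, 0.316 and 1.20 CPM at day 5 and 0.0821, 0.152 and 0.0498 CPM at day 1 in M05B5.5, at 0.0556, 0.679 and 1.20 CPM at day 5 and 0.0583, 0.118 and 0.0268 CPM at day 1 in T14F9.5, and at 0.112, 1.403 and 2.13 CPM at day 5 and 0.200, 0.643 and 0.226 CPM at day 1 in L4440. Its log2 fold changes were 2.98 ± 0.70, 3.76 ± 0.74 and 2.395 ± 0.57, and the later day-5 value of 0.316 CPM in M05B5.5 lay below that of L4440 day-1 replicate 2, at 0.643 CPM. Without day-5 replicate 3 spp-12 was at 1.70 in M05B5.5 and no longer passed (adjusted p = 0.254). spp-20 was at 3.61 ± 0.44, 3.13 ± 0.47 and 2.93 ± 0.48, with 0.832 to 1.72 CPM in the later day-5 libraries and 0.0570 to 0.257 CPM at day 1. spp-31 was at 1.81 ± 0.36, 1.90 ± 0.36 and 1.36 ± 0.36, with 1.797 to 2.21 CPM in the later day-5 libraries and 0.321 to 1.24 CPM at day 1. spp-8, a neighbour of spp-10 on chromosome IV, rose in M05B5.5 (0.80 ± 0.21, adjusted p = 0.0149) and was at 0.24 ± 0.21 in T14F9.5 and -0.20 ± 0.21 in L4440. The other tested spp genes, spp-13, spp-15, spp-16, spp-24 and spp-28, passed with age in no plasmid by edgeR, with all libraries or without replicate 1. By DESeq2 without replicate 1, spp-13 was called higher in T14F9.5 and spp-16 in M05B5.5. In M05B5.5, T14F9.5 and L4440 spp-13 was at 0.92 ± 0.48, 1.501 ± 0.51 and 0.98 ± 0.48 and spp-16 at 0.67 ± 0.24, 0.06 ± 0.25 and -0.44 ± 0.25 without replicate 1.

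spp-1, a caenopore gene of the intestine (chromosome III, 10355098 to 10355668), did not pass with age in any plasmid by edgeR with all libraries or without replicate 1 of day 5. DESeq2 with all libraries, and edgeR without L4440 day-1 replicate 3, called it lower at day 5 in L4440. When L4440 day-1 replicate 2 was left out as well as replicate 1 of day 5, edgeR called it higher in M05B5.5. It stood at 31.7, 49.7 and 66.2 CPM at day 5 and 30.7, 31.0 and 30.8 CPM at day 1 in M05B5.5, at 26.9, 40.8 and 44.0 CPM at day 5 and 28.4, 52.7 and 32.0 CPM at day 1 in T14F9.5, and at 27.6, 43.6 and 48.9 CPM at day 5 and 66.2, 171 and 38.5 CPM at day 1 in L4440. The 3 day-5 values lay above the 3 day-1 values in M05B5.5, by a small margin for replicate 1, and the ages overlapped in T14F9.5 and L4440. The log2 fold changes with all libraries were 0.67 ± 0.43, -0.02 ± 0.43 and -1.20 ± 0.44 in M05B5.5, T14F9.5 and L4440 (adjusted p = 0.495, 0.989 and 0.0667). spp-14 was at 0.59 ± 0.46, 0.02 ± 0.46 and -1.13 ± 0.46, and did not pass in that fit.

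spp-9, a saposin-like gene next to spp-21 on chromosome X, had at most 5 counts in all libraries but 4 later day-5 ones. At day 5 it had 0, 1 and 5 counts in M05B5.5, 1, 31 and 42 counts in T14F9.5 and 0, 62 and 64 counts in L4440. All 9 day-1 libraries had 0 to 2 counts. With all libraries it rose with age in L4440 (log2 fold change 5.45 ± 1.53, adjusted p = 0.0368). The filter admitted spp-9 only through the 4 later day-5 libraries in which it is high, so that test is no independent support for the rise. Over the summed counts of the later day-5 libraries, its CPM was 9.03 times that of day 1 in M05B5.5 (95% interval 1.10 to 415), where the day-1 libraries held 1 count in all, 34.5 times in T14F9.5 (11.3 to 171) and 74.8 times in L4440 (20.3 to 624). In the fit without replicate 1 it rose in T14F9.5 and L4440 (adjusted p = 1.28e-04 and 4.97e-05) and did not pass in M05B5.5 (adjusted p = 0.0901).

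The defensin-like gene abf-2, whose peptide acts against bacteria, was the family member with the highest CPM in the later day-5 libraries. It stood at 0.722, 11.7 and 17.6 CPM at day 5 and 0.957, 0.405 and 0.697 CPM at day 1 in M05B5.5, at 0.723, 10.3 and 11.6 CPM at day 5 and 0.874, 1.06 and 0.964 CPM at day 1 in T14F9.5, and at 0.784, 9.23 and 10.6 CPM at day 5 and 0.998, 1.7999 and 0.846 CPM at day 1 in L4440. The 6 later day-5 libraries (9.23 to 17.6 CPM) lay above all 9 day-1 libraries (0.405 to 1.7999 CPM), and replicate 1 of day 5 (0.722 to 0.784 CPM) lay within them. Without replicate 1 the log2 fold changes were 4.42 ± 0.34, 3.49 ± 0.33 and 3.06 ± 0.32 (adjusted p = 4.57e-06, 2.02e-05 and 6.03e-05), and with all libraries 3.87 ± 1.11, 2.96 ± 1.07 and 2.52 ± 1.05 (adjusted p = 0.303, 0.491 and 0.0962). Its neighbour abf-1 rose in M05B5.5 (1.55 ± 0.45, adjusted p = 0.0286), with 0.373 and 0.636 CPM in the later day-5 libraries and 0.137 to 0.199 CPM at day 1. The filter admitted abf-1 through later day-5 libraries, so that test is no independent support for a rise.

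abf-5 and abf-6, neighbours on chromosome X, had small differences. abf-6 stood at 2.02, 4.42 and 3.60 CPM at day 5 and 2.19, 1.90 and 2.26 CPM at day 1 in M05B5.5, at 2.73, 4.18 and 3.81 CPM at day 5 and 2.30, 2.27 and 2.12 CPM at day 1 in T14F9.5, and at 2.41, 2.98 and 2.29 CPM at day 5 and 3.88, 3.73 and 2.34 CPM at day 1 in L4440. Without replicate 1 it rose in M05B5.5 and T14F9.5 (0.92 ± 0.22 and 0.84 ± 0.22, adjusted p = 0.00936 and 0.0176) and was at -0.32 ± 0.22 in L4440. abf-5 passed in M05B5.5 only (0.77 ± 0.25, adjusted p = 0.0479), and 11 of 15 single libraries ended that call when left out, with an adjusted p up to 0.182 and a log2 fold change of 0.62 to 0.89 over the 15 fits. In T14F9.5 abf-5 was at 0.78 ± 0.25 and in L4440 at -0.50 ± 0.25 (adjusted p = 0.0507 and 0.146).

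**Figure D4:**
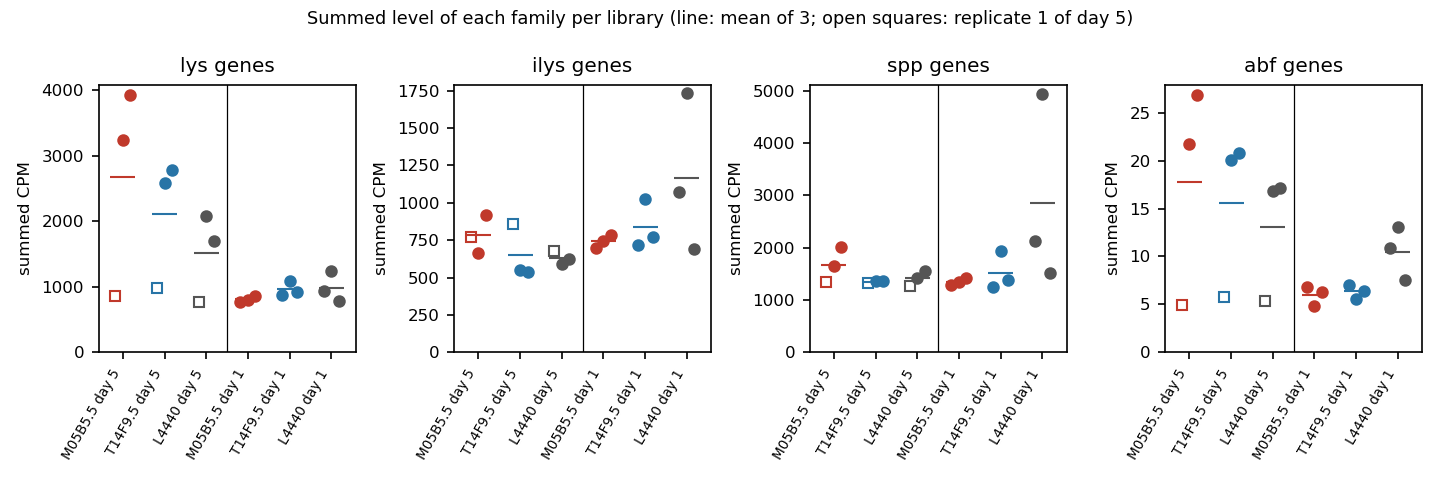
Summed CPM of the lys, ilys, spp and abf genes in each library (points, with the mean of 3 as a line and open squares for replicate 1 of day 5), day-5 groups left of day-1 groups. The lys sum of the later day-5 libraries is 1692 to 3928 CPM and that of the other libraries 765 to 1235 CPM, while the spp sum is highest in L4440 day-1 replicate 2, at 4938 CPM. lys-7 alone makes up 53.0% to 76.4% of the lys counts in the later day-5 libraries and 9.23% to 23.8% in the others.

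The plasmids were compared at each age, which asks whether the antibacterial genes differ when hlh-2 or lin-32 is targeted. In M05B5.5 against L4440 at day 1, 0 of 39 tested members passed, as did 0 of all 14735 genes (0%), with 12 members and 4685 genes under an unadjusted p of 0.05. DESeq2 called 7 members, all lower, where it called 15.8% of all genes, 8.42% as lower. The members' median log2 fold change was -0.56, beside -0.03 over all genes. The 3 M05B5.5 libraries lay below the 3 L4440 libraries for 14 of 39 members, where 20.3% of all genes did so, and above them for 0, where 21% of all genes did. The 14 were lys-1, lys-2 and lys-8 of 9 lys genes, spp-1, spp-3, spp-5, spp-12, spp-14, spp-16, spp-17, spp-18 and spp-24 of 22 spp genes, and abf-5 and abf-6 of 4 abf genes.

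Of these 14 genes 9 were spp genes. spp-1 stood at 30.7, 31.0 and 30.8 CPM in M05B5.5 and 66.2, 171 and 38.5 CPM in L4440 at day 1, and the log2 fold change was -1.57 ± 0.44 (SE, adjusted p = 0.0709). spp-14 stood at 231, 243 and 232 CPM in M05B5.5 and 368, 1293 and 251 CPM in L4440 (-1.44 ± 0.46, adjusted p = 0.0763). spp-5 stood at 359.9, 389.7 and 423 CPM in M05B5.5 and 664, 1564 and 479 CPM in L4440 (-1.21 ± 0.36, adjusted p = 0.0709). In each of the 3 genes the groups did not overlap, the M05B5.5 values were close to one another, and the L4440 values were spread widely with replicate 2 the highest. spp-3 was at -1.23 ± 0.39, spp-17 at -1.17 ± 0.41, spp-16 at -0.83 ± 0.24 and spp-18 at -0.80 ± 0.24, each short of the threshold (adjusted p = 0.0762, 0.0849, 0.0709 and 0.0709).

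A single control library moved with these values. L4440 day-1 replicate 2 had the highest level of the 9 day-1 libraries in 31 of 39 tested members (6 of 9 lys, 2 of 4 ilys, 20 of 22 spp and 3 of 4 abf genes), and in 37.1% of all genes tested. Without it the median of the members in M05B5.5 against L4440 was -0.22 and that of the spp genes -0.31, in place of -0.82, and spp-1 was at -0.76, spp-14 at -0.39 and spp-5 at -0.55. Without L4440 day-1 replicate 3, whose levels are the lowest of the 3 for most spp genes, edgeR called 12 of 41 members lower and 0 higher, where 15.4% of all genes were lower and 18.3% higher. With an offset for each library's trend against gene length the median of the members was -0.18, beside -0.07 over all genes, and 0 members passed.

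Of the lysozyme and abf genes DESeq2 called 0 in this comparison with all libraries, and without replicate 1 of day 5 it called abf-5 and abf-6 lower. lys-7 stood at 158, 143 and 177 CPM in M05B5.5 and 170.1, 186 and 132 CPM in L4440, with a log2 fold change of -0.03 ± 1.01 in the fit with all libraries and -0.03 ± 0.19 without replicate 1 of day 5 (adjusted p = 0.990 and 0.926). lys-1 stood at 222, 239 and 245 CPM in M05B5.5 and 282, 368 and 245 CPM in L4440 (-0.34 ± 0.24), and lys-8 at 126, 136 and 146 CPM in M05B5.5 and 151, 249 and 153 CPM in L4440 (-0.44 ± 0.28). ilys-5 stood at 696, 739 and 785 CPM in M05B5.5 and 1070.2, 1728 and 692 CPM in L4440 (-0.65 ± 0.27, adjusted p = 0.120), and the groups overlapped. abf-5 stood at 3.47, 2.33 and 3.11 CPM in M05B5.5 and 5.67, 7.11 and 4.12 CPM in L4440 (-0.92 ± 0.40, adjusted p = 0.137), and abf-2 at 0.957, 0.405 and 0.697 CPM in M05B5.5 and 0.998, 1.7999 and 0.846 CPM in L4440 (-0.80 ± 1.08, adjusted p = 0.643).

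**Figure D5:**
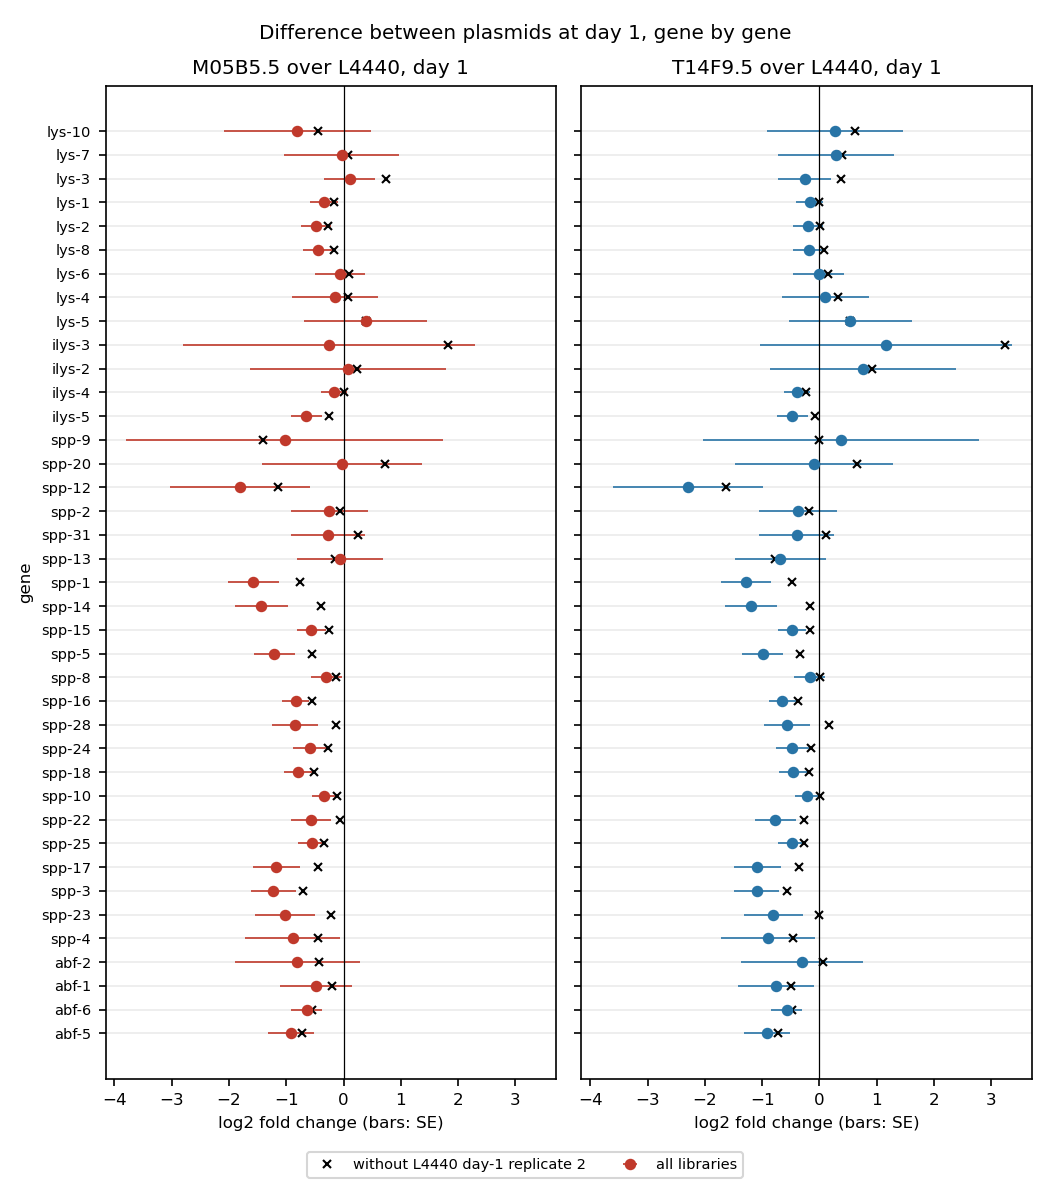
Log2 fold change over L4440 at day 1 for the 39 tested members in M05B5.5 and T14F9.5, with all libraries (circles with SE bars) and without L4440 day-1 replicate 2 (crosses). Most circles of spp genes lie left of 0, and the crosses of spp-1, spp-14 and spp-5 lie nearer to it.

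T14F9.5 was compared with the same L4440 libraries at day 1, so the 2 comparisons share their controls. In this comparison 0 of 39 members passed (0% of all genes), with 8 members and 3357 genes (22.8%) under an unadjusted p of 0.05, and DESeq2 called 0 members, where 3.64% of all genes passed. The median of the members was -0.46, beside -0.03 over all genes. The T14F9.5 libraries lay below the L4440 libraries for 4 members, abf-5, abf-6, spp-12 and spp-25 (8.35% of all genes), and above them for 0 (8.56% of all genes). spp-1 stood at 28.4, 52.7 and 32.0 CPM in T14F9.5 and 66.2, 171 and 38.5 CPM in L4440 (-1.28 ± 0.44, adjusted p = 0.146), and the groups overlapped. lys-7 stood at 207, 185 and 205 CPM in T14F9.5 and 170.1, 186 and 132 CPM in L4440 (0.29 ± 1.01, adjusted p = 0.885). abf-5 stood at 3.64, 2.21 and 3.11 CPM in T14F9.5 and 5.67, 7.11 and 4.12 CPM in L4440 (-0.91 ± 0.41, adjusted p = 0.199). Without L4440 day-1 replicate 2 the members' median was -0.08 and spp-1 was at -0.48, and without replicate 3 edgeR called 9 of 41 members lower and 0 higher, where 11.4% of all genes were lower and 14.6% higher.

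At day 5, 0 of 39 members passed in either plasmid against L4440 with all libraries (0% of all genes), with 1 member in M05B5.5 (1.36% of all genes) and 0 in T14F9.5 (0.631%) under an unadjusted p of 0.05. DESeq2 called 0 members, and 0.0543% of all genes in M05B5.5 and 0% in T14F9.5. In both, 0 members had groups that did not overlap, where 1.64% of all genes lay higher in each plasmid and 1.64% in M05B5.5 and 1.55% in T14F9.5 lay lower. lys-7 stood at 101, 2388 and 2714 CPM in M05B5.5, 129, 1978 and 2011 CPM in T14F9.5 and 70.8, 1467 and 897 CPM in L4440. Within the later replicates both M05B5.5 and both T14F9.5 values lay above both L4440 values. Without replicate 1 its log2 fold change over L4440 was 1.11 ± 0.23 in M05B5.5 and 0.75 ± 0.23 in T14F9.5 (adjusted p = 0.223 and 1.00), and DESeq2 on those libraries called it in M05B5.5. spp-1 stood at 31.7, 49.7 and 66.2 CPM in M05B5.5, 26.9, 40.8 and 44.0 CPM in T14F9.5 and 27.6, 43.6 and 48.9 CPM in L4440, with overlap in both comparisons (0.30 ± 0.43 and -0.10 ± 0.43).

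By edgeR with all libraries 0 members passed between plasmids, and without replicate 1 of day 5 spp-9 passed at day 5. The filter admitted spp-9 only through the later day-5 libraries of T14F9.5 and L4440, where it is high, so the call is no independent support for a difference. Its log2 fold change in M05B5.5 over L4440 was -4.32 ± 0.56 (adjusted p = 0.0383), where 3 of 14952 genes passed (0.0201%, 0.00669% higher and 0.0134% lower). Over summed counts it was 6 in the 2 later M05B5.5 libraries and 126 in those of L4440, a CPM ratio of 0.0487 (95% interval 0.0176 to 0.109, counting error only). In T14F9.5 against L4440 0 of 40 members passed, where 0.00669% of all genes did, as higher. There the ratio was 0.615 (0.455 to 0.827) and the log2 fold change -0.71 ± 0.41 (adjusted p = 1.00). The call in M05B5.5 was lost in 10 of 15 fits that left out 1 further library, with an adjusted p of 0.0526 to 0.572 in those and a log2 fold change of -5.63 to -3.72 over the 15, among them both M05B5.5 and both L4440 day-5 libraries. With all libraries its log2 fold change was -4.26 ± 1.29 and it did not pass (adjusted p = 1.00).

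Whether the effect of age differs between plasmids was tested directly. Of the members 0 passed for M05B5.5 against L4440 and 0 for T14F9.5 against L4440, with all libraries and without replicate 1 of day 5, and 0 by DESeq2 in either case. With all libraries 11 members in M05B5.5 (13.1% of all genes) and 2 in T14F9.5 (5.19% of all genes) were under an unadjusted p of 0.05. The median difference in log2 fold change was 0.88 in M05B5.5 and 0.52 in T14F9.5, beside 0.04 over all genes in both, and without L4440 day-1 replicate 2 it was 0.54 and 0.19, beside 0.03 and 0.01. spp-1 had a difference of 1.87 ± 0.61 in M05B5.5 and lys-7 one of 1.13 ± 1.43 (adjusted p = 0.380 and 0.698). Without L4440 day-1 replicate 3, 8 members passed in M05B5.5, abf-6, ilys-5, spp-1, spp-3, spp-5, spp-14, spp-16 and spp-18, with a larger value in M05B5.5, where 5.5% of all genes had a larger and 8.72% a smaller one.

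Factors known to control genes of this kind were compared in the same fits. Of 30 listed regulators, among them the kinases of the PMK-1 pathway, DAF-16, HLH-30, ELT-2 and the DBL-1 pathway, 29 were tested. Without replicate 1 of day 5, 3 rose and 0 fell in M05B5.5, 2 rose and 1 fell in T14F9.5, and 5 rose and 1 fell in L4440. Of all genes 9.78% rose and 10.6% fell in M05B5.5, 7.56% and 10.3% in T14F9.5, and 12.1% and 18% in L4440. pqm-1, a zinc-finger factor of stress and metabolic genes, rose in each (log2 fold change 1.13, 1.14 and 0.79), as did nhr-86 (0.62, 0.69 and 0.43). pmk-1, the p38 kinase of the immune response, was at -0.17, -0.06 and 0.43 and daf-16 at 0.22, 0.35 and 0.69, and neither passed. With all libraries 1 regulator, the kinase gene pik-1, was higher at day 5 in L4440 (1.46), where 6.72% of all genes were. In M05B5.5 or T14F9.5 0 regulators passed, as did 0% of all genes.

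Other immune effectors, of gene families outside the 4 described, were compared as well. Of 36 listed, 33 were tested, and without replicate 1 of day 5 19 rose and 2 fell in M05B5.5, 15 rose and 2 fell in T14F9.5, and 14 rose and 6 fell in L4440. The shares over all genes were 9.78% higher and 10.6% lower, 7.56% and 10.3%, and 12.1% and 18% in the same order. Low genes such as clec-60, math-38 and ugt-18 stood at no more than 0.177, 0.141 and 0.241 CPM at day 1. The filter admitted them through later day-5 libraries, so any call of a rise in them is no independent support. The thaumatin-like genes thn-1 (4.29, 3.08 and 2.10 in M05B5.5, T14F9.5 and L4440) and thn-2 (4.38, 4.12 and 3.62), the metallothionein mtl-1 (5.56, 5.42 and 4.62) and the caenacin cnc-4 (3.98, 3.17 and 3.75) rose in every plasmid. The lectin genes clec-4 (-0.996, -1.55 and -1.76) and clec-66 (-0.68, -1.21 and -1.81) fell in every plasmid. With all libraries 3 effectors, clec-67 (-1.24), clec-86 (-1.25) and mtl-2 (-0.99), were lower at day 5 in L4440, where 9.11% of all genes were. In M05B5.5 or T14F9.5 0 effectors passed, as did 0% of all genes.

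Markers of the intestine and pharynx were compared too. Of 12 intestine markers, 2 rose and 6 fell in M05B5.5, 2 rose and 7 fell in T14F9.5, and 2 rose and 8 fell in L4440 without replicate 1 of day 5. The intestinal genes asp-1 (-1.25, -1.68 and -1.51), pept-1 (-2.09, -1.51 and -1.48) and act-5 (-0.99, -1.13 and -0.83) fell in every plasmid, and the protease genes cpr-1 (2.60, 2.13 and 1.93) and ges-1, an esterase gene (1.68, 0.89 and 0.93), rose. Of 6 tested pharynx markers 0 rose in any plasmid and 5, 4 and 4 fell in M05B5.5, T14F9.5 and L4440. Over all genes 9.78%, 7.56% and 12.1% rose and 10.6%, 10.3% and 18% fell in these plasmids. The summed level of the intestine markers was 29360 to 42657 CPM in M05B5.5 day-5, 22201 to 46151 CPM in T14F9.5 day-5 and 20981 to 50097 CPM in L4440 day-5, against 38268 to 43460, 32940 to 44837 and 28952 to 37889 CPM at day 1. The 7 pharynx markers summed to 19.7 to 69.3 CPM at day 5 and 43.8 to 66.2 CPM at day 1, the 5 epidermis markers to 47.4 to 209 CPM at day 5 and 235.4 to 479 CPM at day 1, and the 3 body wall muscle markers to 349 to 1261 CPM at day 5 and 466 to 1264 CPM at day 1. The 6 germ line and sperm markers summed to 3633 to 4571 CPM at day 5 and 2513 to 4347 CPM at day 1, with msp-76, msp-3 and msp-10 at 0 in some library. Single genes dominate some of these sums. In the epidermis list col-19 stood at 32.4 to 203 CPM at day 5 and 227 to 467 CPM at day 1. cnc-2 of that list went the other way, at 7.07 to 14.4 CPM in the later day-5 libraries and 0.758 to 3.77 CPM at day 1. vit-2 and vit-6 made up most of the intestine sum. The sums therefore do not measure the amount of a tissue. The part of tissue makeup in the levels of the antibacterial genes was not tested.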

How the data were processed

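RNA of whole worms was sequenced from 18 libraries. Per the labels, they were made with a TruSeq RNA kit (v2). The submitters' processing notes name STAR 2.4.1d, featureCounts 1.4.6-p4 and the genome build WBcel235, and the strand and multi-mapping settings are not given in the sources used here. The counts deposited by the authors are raw read counts per gene (46748 genes, 27024193 to 43016293 counts a library), and a deposited RPKM table was not used. Every table column belonged to a labelled sample.

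Differences were tested on these counts with edgeR 4.0.16 in R 4.3.3 (quasi-likelihood test, robust, TMM scaling, a minimum count of 10, 1 term per group over all 18 libraries, 12 residual degrees of freedom). P-values were adjusted by Benjamini-Hochberg over the 14735 genes tested, with a threshold of 0.05, and an SE is the log2 fold change divided by the square root of its F. CPM are scaled by TMM. With these designs at 3 libraries a group, 24% and 98% of genes changed 2-fold and 4-fold in simulated counts were found in M05B5.5 against L4440 at day 1, and 34% and 96% for age in L4440. The simulated counts had 1 common spread for all genes, no split within day 5 and no outlying library, and only genes of at least 5 CPM were changed. These shares therefore do not carry over to low members or to the libraries as they stand. DESeq2 1.42.0, other scaling and filters, a lane term, gene-length offsets and leaving out libraries were alternatives. Intervals of count ratios are exact at 95% and cover counting error only.

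Members, gene lists and the libraries set aside were chosen with earlier results of these data known. Genes named by rule were lys-7 and spp-1, the 3 members of highest mean CPM in each family, members past the threshold (the 5 highest and 5 lowest where more than 10 passed) and those under the filter, and further members, regulators and effectors were named after their values were seen. Likeness of patterns across libraries is not reported, because the libraries fall into separate clusters. No sequences were used here.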

Additional observations from a re-analysis of the deposited data

How the results depend on the processing

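Counts of members called depended on which libraries entered. For age in L4440 (8 with all libraries) DESeq2 called 13, no filter on low counts 2, the compared groups alone 0, leaving out the pair that shares index and lane 0, and the gene-length offset 0. Of all genes 15.8% passed there with all libraries by edgeR and 26.1% by DESeq2. A term for replicate 1 of day 5 gave 22, leaving those libraries out 21, and leaving out L4440 day-1 replicate 2 as well 20. The last 2 settings passed 30.1% and 30.6% of all genes. In M05B5.5 the age count (0) was 2 by DESeq2, 21 with that term, 20 without those libraries and 29 without both, and in T14F9.5 (0) it was 22 with the term, 19 and 23. In M05B5.5 DESeq2 called 0.937% of all genes. Leaving out those libraries, and both, gave 20.4% and 31.6% of all genes in M05B5.5 and 17.9% and 28% in T14F9.5. In M05B5.5 against L4440, the count at day 1 (0) was 7 by DESeq2 and 8 with the term, and at day 5 (0) it was 1 with the term, 1 without replicate 1 of day 5 and 1 without both. DESeq2 called 15.8% of all genes at day 1. At day 5 0.0201% of all genes passed without replicate 1 and 0.0269% without both. Without replicate 1 of day 5, DESeq2 called 11 (M05B5.5, day 1), 2 (M05B5.5, day 5) and 3 (T14F9.5, day 1), in place of 0, 1 and 0. It called 19.9%, 0.341% and 6.03% of all genes in these comparisons. Counts without a share over all genes, as with the term, do not set these families apart from other genes. The cause of these shifts was not tested.

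Leaving out single libraries with all 18 in the fit gave 0 to 15 for age in L4440, 0 to 11 in M05B5.5 (11 without day-5 replicate 1), 0 to 12 for M05B5.5 and 0 to 9 for T14F9.5 at day 1, and 0 to 8 for the interaction of M05B5.5 with age, where the upper values at day 1 and of the interaction came without L4440 day-1 replicate 3. Without that replicate 33.7% (M05B5.5, day 1), 25.9% (T14F9.5, day 1) and 14.2% (interaction) of all genes passed. The 15 for age in L4440 also came without it, where 37% of all genes passed. Among the other 15 libraries the ranges were 13 to 28 for age in L4440 (13 without either day-5 library), 11 to 29 in M05B5.5 (11 without day-5 replicate 3) and 13 to 23 in T14F9.5, 0 to 18 for M05B5.5 and 0 to 16 for T14F9.5 at day 1, and 0 to 1 for M05B5.5 at day 5. The ranges among the other 15 libraries stand without shares over all genes, so they do not set these families apart from other genes. Each log2 fold change of a member given here was recomputed, as were those of called members (142 in all). Of 2928 recomputed values, 2564 kept direction and side of the threshold, 215 no longer passed, 102 newly passed and 47 changed direction. The 47 belong to 17 fold changes that had not passed (adjusted p of 0.0899 or more) and did not pass afterwards.

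The direction of lys-7 in M05B5.5 against L4440 at day 1 (-0.03 in both fits) is not settled: it was 0.033 with no filter, 0.0047 without the pair that shares index and lane, 0.26 with the gene-length offset and 0.064 without replicate 1 of day 5 and L4440 day-1 replicate 2, and -0.14 to 0.077 (all libraries) and -0.14 to 0.064 (without replicate 1) when 1 library was left out. spp-1 with age in T14F9.5 (-0.02) was 0.0026 in the compared groups alone, 0.30 without the shared pair, 0.17 without replicate 1 of day 5, 0.20 with the term, 0.10 with the offset, 0.18 without both and -0.19 to 0.30 without 1 library. With a lane term spp-1 in M05B5.5 against L4440 at day 5 was -0.086 and ilys-5 with age in M05B5.5 -0.18. With the term ilys-5 was -0.0057, and without 1 library -0.039 to 0.20. Leaving out replicate 1 of day 5 and L4440 day-1 replicate 2, age in L4440 gave 0.12 for spp-14 and 0.15 for ilys-4. Without 1 library spp-14 with age in T14F9.5 was -0.15 to 0.35 and spp-1 in T14F9.5 against L4440 at day 5 -0.31 to 0.080. With 1 further library left out beside replicate 1 of day 5, age in L4440 gave -0.13 to 0.15 for ilys-4, -0.15 to 0.23 for lys-1, -0.20 to 0.33 for lys-2, -0.20 to 0.36 for lys-8 and -0.48 to 0.052 for spp-8, and age in T14F9.5 gave -0.25 to 0.24 for lys-2, -0.078 to 0.25 for lys-8, -0.088 to 0.19 for spp-16 and -0.013 to 0.37 for spp-5. The cause was not tested. Among called values without replicate 1 of day 5, age in L4440 was 2.90 for ilys-2 (adjusted p = 0.0520) and -7.53 for lys-5 without day-5 replicate 2, -2.65 for lys-5 without day-5 replicate 3, and -0.78 for spp-17 and -1.06 for spp-23 without day-1 replicate 2. ilys-3 in M05B5.5 was at 7.08 without day-1 replicate 2.

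A lane term could not be fitted for M05B5.5 against L4440 at day 1, age in L4440 or T14F9.5, or the interaction of M05B5.5 with age. No paired analysis was possible because the labels number no replicates.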
